A study of Mus musculus with 2 samples.

Results

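Lipid-associated macrophages are macrophages that take up, store and export lipid, and 9 genes that are widely used to mark them were followed in cells of mouse pancreatic tumors. The genes, of 32285 in the count files, were Apoe, Trem2, Gpnmb, Spp1, Fabp5, Lpl, Cd36, Abca1 and Lgals3, and all 9 were found by symbol. They were taken by symbol from a list, which was drawn up when earlier results of these data were known. In gated macrophages, Apoe, Gpnmb and Spp1 were at least 2-fold lower in the library from treated mice than in the PBS library, Fabp5 was 1.95-fold higher, and Abca1 and Lgals3 were within 1.1-fold. Apoe, Gpnmb and Spp1 were also at least 2-fold lower in monocytes, and Spp1 in neutrophils. Gpnmb was that much lower in neutrophils too, but it was sparse there, at 19.4 CPM in PBS and 4.62 CPM in cmExoaCD11b. Its share of thinned PBS neutrophils had an interval that overlapped those of the lymphocyte classes. In neutrophils the share of cells with Apoe lay between those of the lymphocyte classes, so Apoe was not told apart from background. Apoe and Spp1 were at least 2-fold lower in the lymphocyte classes too, while Gpnmb, with few UMIs there, was not.

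The study treated male C57BL/6J mice, 5 to 6 weeks old on arrival, that carried K210 tumor cells in the pancreas. K210 cells come from mice whose alleles include Pdx1-Cre and Trp53 fl/fl, in which Cre acts in the pancreas, so both groups share 1 tumor line in otherwise unmodified hosts. One group was given PBS and the other cmExoaCD11b, exosomes that carry IL-12 mRNA and 5 µg of the STING agonist cGAMP per mouse and are coupled to an antibody to CD11b, a surface protein of myeloid cells. Drugs were given into the peritoneum from 7 days after tumor cell injection, and tumor-infiltrating cells were collected 48 h after treatment, with 3 mice pooled into 1 droplet library per group. Since each group is 1 library, the differences below were not checked in replicates and carry no p-value, and every interval given covers counting error only.

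In adipose tissue, atherosclerotic plaque, brain and tumors, the TREM2 receptor binds lipids and lipoproteins such as those carrying ApoE, and signals through the adaptor TYROBP. Macrophages with this signalling raise genes for lipid uptake, lysosomal breakdown and cholesterol export. LPL and CD36 bring fatty acids into the cell, FABP5 carries them inside it, and ABCA1 passes cholesterol to lipoprotein particles. GPNMB is a glycoprotein of the lysosome and cell surface, SPP1 (osteopontin) is a secreted matrix protein, and galectin-3, the product of Lgals3, binds sugars on damaged lysosomes and at the cell surface.

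RefSeq start-site windows on GRCm38.p6, from 250 bases before a transcript's start to 50 bases after it, were at hand for 7 of the 9 genes; Fabp5 and Lpl had none. The windows of the 3 genes that were at least 2-fold lower in macrophages are given first and that of Abca1, which was nearly level, last, so that their starts can be set side by side. Each runs 5′ to 3′ on the gene's strand. Capitals mark matches, on either strand, to 4 motifs: AP-1 (TGANTCA), the E-box CACGTG, the TATA box (TATAAA) and the nuclear receptor half-site AGGTCA.
Apoe, chr7:19699139-19699438, minus strand: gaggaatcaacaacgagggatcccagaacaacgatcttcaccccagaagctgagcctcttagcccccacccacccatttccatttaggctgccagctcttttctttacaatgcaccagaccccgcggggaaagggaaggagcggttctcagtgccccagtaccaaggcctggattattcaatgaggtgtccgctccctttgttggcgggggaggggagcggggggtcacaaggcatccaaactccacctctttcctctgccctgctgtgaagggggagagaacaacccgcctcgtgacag
Spp1, chr5:104434861-104435160, plus strand: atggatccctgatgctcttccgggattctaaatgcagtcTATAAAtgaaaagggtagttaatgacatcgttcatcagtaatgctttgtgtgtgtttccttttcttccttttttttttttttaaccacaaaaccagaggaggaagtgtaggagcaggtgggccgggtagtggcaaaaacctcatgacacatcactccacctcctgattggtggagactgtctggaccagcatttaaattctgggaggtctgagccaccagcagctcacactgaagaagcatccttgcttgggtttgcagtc
Gpnmb, chr6:49036268-49036567, plus strand: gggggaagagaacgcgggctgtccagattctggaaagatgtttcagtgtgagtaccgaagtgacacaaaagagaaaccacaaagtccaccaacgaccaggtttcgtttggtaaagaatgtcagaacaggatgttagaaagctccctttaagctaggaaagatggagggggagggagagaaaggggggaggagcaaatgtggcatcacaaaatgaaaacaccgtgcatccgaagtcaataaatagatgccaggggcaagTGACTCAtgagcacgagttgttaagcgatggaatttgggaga
Abca1, chr4:53159846-53160145, minus strand: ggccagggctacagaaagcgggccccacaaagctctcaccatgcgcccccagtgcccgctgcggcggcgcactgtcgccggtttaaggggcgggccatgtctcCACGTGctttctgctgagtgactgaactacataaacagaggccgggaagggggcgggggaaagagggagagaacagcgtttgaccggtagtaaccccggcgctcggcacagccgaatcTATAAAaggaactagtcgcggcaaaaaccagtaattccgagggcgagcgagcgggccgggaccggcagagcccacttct
The printed Apoe window, 1 of 3 for the gene, held no match to the 4 motifs, but the second window, not printed, held 2 overlapping TATA box matches. The Gpnmb window held an AP-1 match beginning 8 bases after the start, a motif found in 7.81% of all 32851 windows. Spp1 and Abca1 each held a TATAAA match, found in 13.6% of windows, but the Abca1 match began 29 bases before the start and the Spp1 match 211 bases before it. Abca1 also held the E-box, found in 7.15% of windows, and the Trem2 window, not printed, held an AP-1 match and a half-site match, the latter motif being found in 16.3% of windows. None of the 4 motifs was found in windows of all 3 lower genes, although TATAAA was found for both Apoe and Spp1, and a match is a description of letters, not a site in use.

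Cells were placed in 7 classes by lists of 8 marker genes that hold none of the 9 genes. A cell took the class with the most markers detected, if at least 2 markers were detected and no other list had as many. After calling, filters and removal of likely doublets, 6835 PBS cells with a median of 3471 unique molecular identifiers (UMIs) and 7076 cmExoaCD11b cells with a median of 4112 UMIs were kept, and 16 barcodes occurred in both. The gates held 360 macrophages in PBS, 5.27% of cells (4.75 to 5.82%), against 77 in cmExoaCD11b, 1.09% (0.860 to 1.36%). Macrophages and monocytes were deeper in PBS, with medians of 11643.5 and 6119.5 UMIs against 7095 and 3865 UMIs in cmExoaCD11b. Monocytes numbered 232 and 383, DCs 17 and 33, and neutrophils 4836 and 4536, while 613 and 692 cells stayed ungated. All 8 macrophage markers had UMIs in the macrophages of both libraries, with summed levels of 9360 and 7578 CPM. In DCs 3 of the 8 had a UMI in PBS and 5 in cmExoaCD11b, at a summed 53.0 and 23.8 CPM. DCs also held monocyte markers, at a summed 1423 CPM in PBS and 1934 CPM in cmExoaCD11b, beside 1139 and 1181 CPM of DC markers. Only 4 of the 8 monocyte markers had a UMI in PBS DCs, where Ly6c2, Vcan, F13a1 and Ace had 0, and 7 in cmExoaCD11b DCs. Macrophages also held all 8 neutrophil markers, at a summed 2230 CPM in PBS and 927 CPM in cmExoaCD11b. Neutrophils held all 8 monocyte markers, at a summed 4505 CPM in PBS and 8552 CPM in cmExoaCD11b, beside 7324 and 8865 CPM in monocytes. By the monocyte markers the 2 classes were thus not far apart, and they were closer in cmExoaCD11b than in PBS. Neutrophil markers did separate them. They summed to 31327 CPM in PBS neutrophils and 37257.5 CPM in cmExoaCD11b neutrophils, beside 3513 and 1937 CPM in monocytes. The part of these markers of other classes in the results was not tested. CPM relates a gene's UMIs to the total of its class in a library, per 1000000 UMIs, and has exact Poisson 95% intervals, and ratios are cmExoaCD11b to PBS with exact conditional 95% intervals. Levels are compared within a gene and not between genes.

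The 9 genes fell into different patterns across the myeloid classes, as the plot of levels by class shows. Apoe, Trem2, Spp1 and Abca1 had the order macrophages, monocytes, neutrophils, DCs in both libraries, although Trem2 in DCs rested on 1 and 0 UMIs. In PBS, Apoe was 14870 CPM in macrophages (14763 to 14978), 1626 in monocytes, 206 in neutrophils and 72.8 in DCs, the last from 11 UMIs. The macrophage level of Apoe was 9.15 times that of monocytes in PBS (8.84 to 9.46) and 11.7 times in cmExoaCD11b (11.1 to 12.4). Trem2 in macrophages was 3.33 times monocytes in PBS and 3.58 times in cmExoaCD11b, with intervals that overlap. Gpnmb did not separate macrophages from monocytes, with a ratio of 1.05 (0.847 to 1.30) in PBS and 1.31 (0.770 to 2.15) in cmExoaCD11b. Lgals3 was nearly level between these classes too, at 0.928 (0.894 to 0.964) in PBS and 1.06 (0.995 to 1.12) in cmExoaCD11b. Cd36 was highest in DCs, at 92.7 CPM in PBS and 63.6 CPM in cmExoaCD11b, although its DC and macrophage intervals overlap in both libraries. Its macrophage to DC ratio was 0.522 (0.305 to 0.970) in PBS and 0.682 (0.393 to 1.20) in cmExoaCD11b, from 14 and 24 DC UMIs. Spp1 was not mainly a macrophage transcript. The few epithelial and stromal cells, 48 and 32, held Spp1 at 18539 CPM in PBS and 11537 CPM in cmExoaCD11b.

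**Figure D1:**
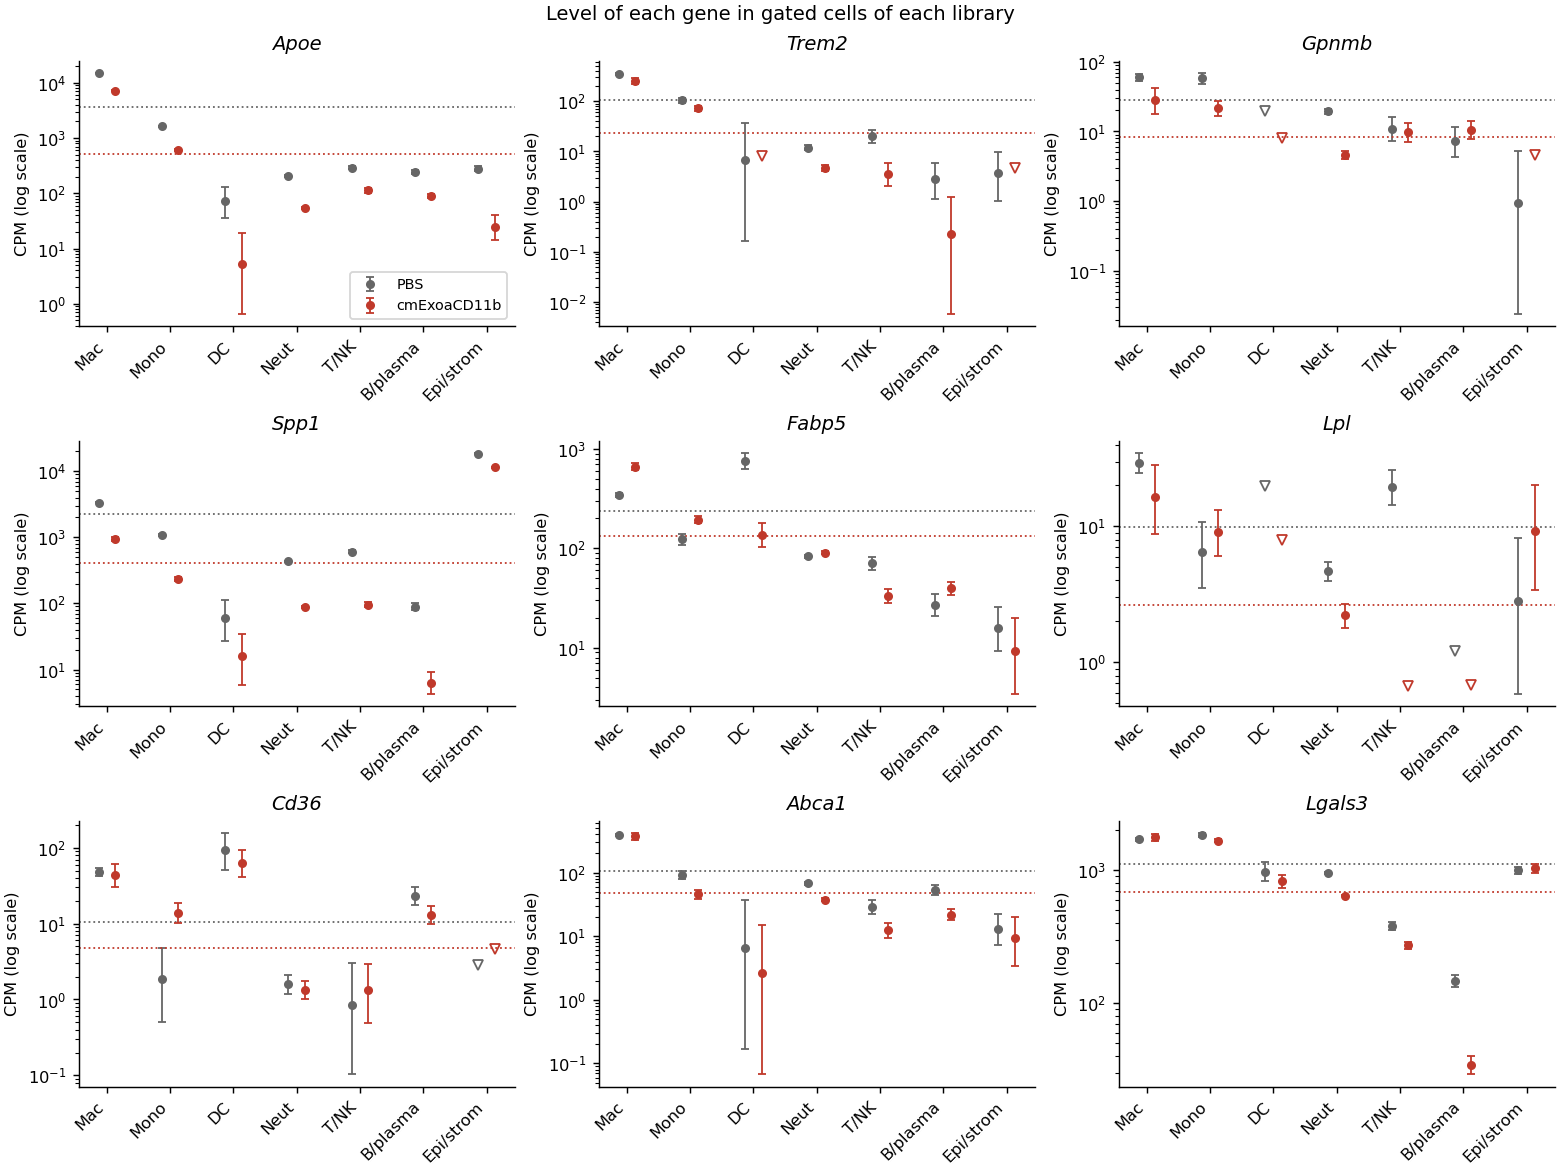
Level of each of the 9 genes (CPM, log scale) in macrophages (Mac), monocytes (Mono), DCs, neutrophils (Neut), T and NK cells, B and plasma cells, and epithelial and stromal cells of the PBS and cmExoaCD11b libraries. Points are summed UMIs of the gated cells with exact Poisson 95% intervals, open triangles are upper limits of 3 counts where no UMI was seen, and dotted lines are the level in empty droplets of each library; Apoe is highest in macrophages, at 14870 CPM in PBS and 7173 CPM in cmExoaCD11b.

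By summed UMIs, Apoe, the lipoprotein ligand, was lower in treated macrophages, and its receptor Trem2 less so. Apoe was 14870 CPM in PBS macrophages and 7173 CPM in cmExoaCD11b macrophages (6986 to 7363), a ratio of 0.482 (0.469 to 0.496). As a mean over cells, in which each cell has the same weight, the ratio was 0.616, short of 2-fold. Trem2 was 345 CPM in PBS and 256 CPM in cmExoaCD11b, a ratio of 0.742 (0.638 to 0.859). When every cell was thinned to 1000 UMIs, which left out 10 and 4 shallower macrophages, 87.4% of PBS macrophages (83.5 to 90.7%) and 76.7% of cmExoaCD11b macrophages (65.4 to 85.8%) still had an Apoe UMI. For Trem2 the shares were 22.9% (18.6 to 27.6%) and 11.0% (4.85 to 20.5%). Without thinning, Apoe was found in 349 of the 360 PBS macrophages and 67 of the 77 cmExoaCD11b macrophages, which were shallower. The intervals of the shares at 1000 UMIs overlap between libraries for both genes. When thinned to 2000 UMIs, the Trem2 shares were 35.4% in PBS and 29.0% in cmExoaCD11b, closer to each other. Of all Apoe UMIs in kept cells, 79.9% lay in macrophages in PBS and 43.4% in cmExoaCD11b, and of all Trem2 UMIs 61.1% and 24.8%, beside macrophage numbers of 360 and 77.

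Spp1, the gene of the secreted matrix protein osteopontin, was over 3-fold lower in treated macrophages. It was 3369 CPM in PBS and 945 CPM in cmExoaCD11b, a ratio of 0.280 (0.260 to 0.302). Of the cmExoaCD11b UMIs, 38.7% came from 1 cell, and without the cell richest in Spp1 in each library the ratio was 0.190. Epithelial and stromal markers, of cells rich in Spp1, summed to 54.1 CPM in PBS macrophages and 65.0 CPM in cmExoaCD11b macrophages. Thinned shares of macrophages with Spp1 were 54.0% (48.6 to 59.3%) in PBS and 21.9% (13.1 to 33.1%) in cmExoaCD11b, which do not overlap. Gpnmb, the gene of the lysosomal glycoprotein, rested on 298 UMIs in PBS and 22 in cmExoaCD11b. Its level was 60.3 and 28.0 CPM, a ratio of 0.465 (0.287 to 0.717), and the alternatives described later put it between 0.292 and 0.635. Lgals3, the gene of galectin-3, was 1699 CPM in PBS and 1756 CPM in cmExoaCD11b, a ratio of 1.03 (0.975 to 1.09). So the transcripts of these proteins of the lysosome, surface and matrix did not share 1 ratio. The interval of Lgals3 lies apart from those of Spp1 and Gpnmb.

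Of the genes that bring lipid in, Fabp5 was the single gene of the 9 whose ratio interval lay above 1 in macrophages. Fabp5, a carrier of fatty acids in the cytosol, was 342 CPM in PBS and 665 CPM in cmExoaCD11b, a ratio of 1.95 (1.76 to 2.15). In cmExoaCD11b, 31.2% of its UMIs lay in 1 macrophage, which was also the cell with most Gpnmb and most Lgals3 UMIs. Without the richest cell in each library the ratio was 1.53, and it passed 2-fold under 3 alternatives, at 2.04, 2.05 and 2.63. The thinned shares, 17.7% (13.9 to 22.1%) in PBS and 21.9% (13.1 to 33.1%) in cmExoaCD11b, overlap widely. Lpl, the lipase that frees fatty acids from lipoproteins, was sparse, with 145 UMIs in 25 PBS macrophages and 13 UMIs in 2 cmExoaCD11b macrophages. These cell numbers are not matched for depth. The levels of Lpl were 29.4 and 16.6 CPM, a ratio of 0.564 (0.293 to 0.996). Because 12 of the 13 UMIs came from 1 cell, the ratio was 0.0530 without the richest cell of each library. Cd36, a scavenger receptor and fatty acid transporter, was 48.4 CPM in PBS and 43.3 CPM in cmExoaCD11b, a ratio of 0.896 (0.606 to 1.29).

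Abca1, which exports cholesterol and is a classic target of the sterol sensor LXR, was 390 CPM in PBS macrophages and 371 CPM in cmExoaCD11b macrophages, a ratio of 0.950 (0.837 to 1.08). It was found in 34.9% of thinned PBS macrophages and 35.6% of thinned cmExoaCD11b macrophages. In all, 3 of the 9 genes were at least 2-fold lower in macrophages and 0 at least 2-fold higher. For Apoe, Gpnmb, Fabp5 and Lpl these calls change with the processing. Among the 7972 genes with a mean of at least 10 CPM in macrophages, 3.2% were at least 2-fold lower and 4.78% at least 2-fold higher. The median ratio was 0.742 for the 9 genes and 1.04 for all these genes.

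**Figure D2:**
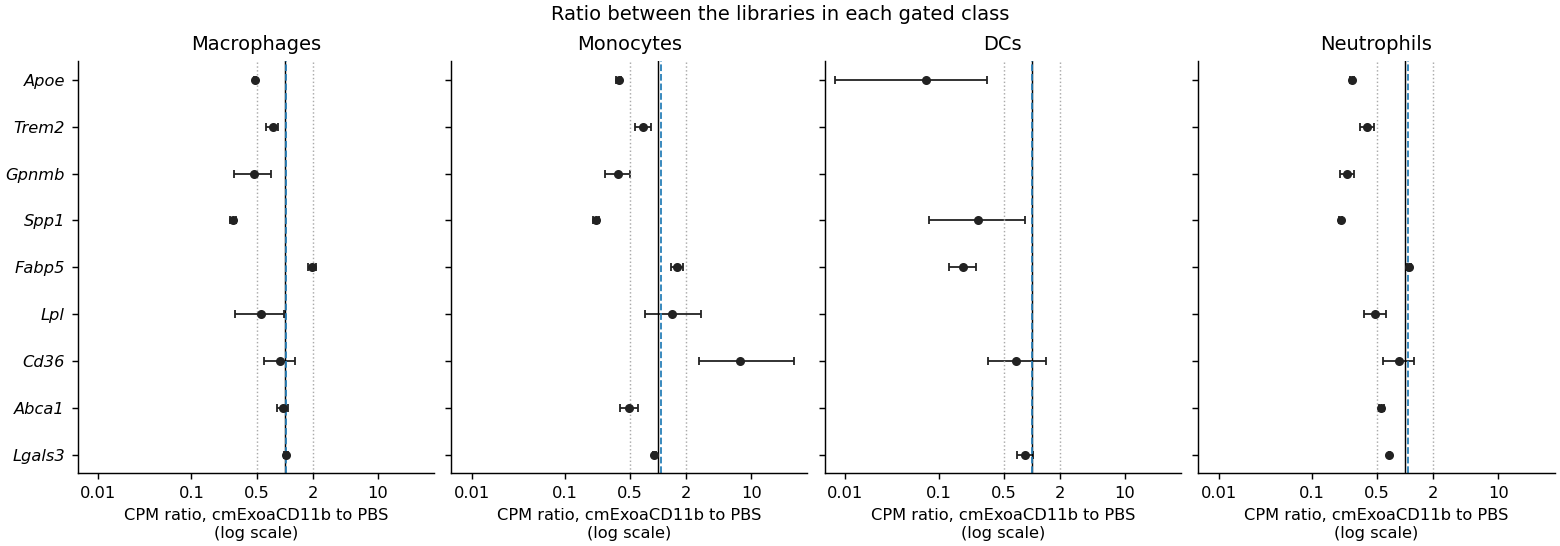
Ratio of the CPM in cmExoaCD11b to that in PBS (log scale) for each of the 9 genes in macrophages, monocytes, DCs and neutrophils, with exact conditional 95% intervals. The solid line marks 1, the dotted lines 0.5 and 2, and the dashed line the median of all genes tested in that class; Trem2, Gpnmb, Lpl and Abca1 have no point in DCs, where each had 0 or 1 UMI per library, and Fabp5 lies at 1.95 in macrophages and 0.183 in DCs.

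Monocytes, the blood-derived precursors of many tumor macrophages, held most of the same genes at lower levels than macrophages. Gpnmb did not separate these classes in either library, and Lgals3 was nearly level. In PBS, Lgals3 was slightly higher in monocytes, at 1831 CPM against 1699 CPM in macrophages. Apoe was 1626 CPM in PBS monocytes and 612 CPM in cmExoaCD11b monocytes, a ratio of 0.376 (0.356 to 0.398). Spp1 was 1086 and 234 CPM, a ratio of 0.216 (0.198 to 0.235). Gpnmb was 57.6 and 21.4 CPM, a ratio of 0.371 (0.271 to 0.504). Abca1 was 93.1 and 45.7 CPM, a ratio of 0.491 (0.393 to 0.612), an interval apart from the macrophage one. Its 2-fold call ended under a stricter gate, at 0.571, and without the richest cells, at 0.520. Trem2 was 104 and 71.6 CPM, a ratio of 0.691 (0.571 to 0.835), and Lgals3 was 1831 and 1661 CPM, a ratio of 0.907 (0.870 to 0.946). Fabp5 was again higher, at 124 and 195 CPM and a ratio of 1.58 (1.36 to 1.83), but 31.9% of the cmExoaCD11b UMIs came from 1 cell and the ratio was 1.24 without the richest cells. Lpl and Cd36 had a mean under 10 CPM. Lpl had 14 and 28 UMIs, a ratio of 1.41 (0.716 to 2.89). Cd36 had 4 and 43 UMIs, a ratio of 7.56 (2.75 to 29.0), with 44.2% of the 43 UMIs in 1 cell, and was 2.24 with a second set of gate markers and 1.21 as a mean over cells. Of the 7 genes above that mean, 4, Abca1 included, were at least 2-fold lower and 0 at least 2-fold higher, while 1.62% of 7987 genes were that much lower and 5.61% that much higher. Monocytes also held neutrophil markers, all 8 in both libraries, at a summed 3513 CPM in PBS and 1937 CPM in cmExoaCD11b. Epithelial and stromal markers summed to 26.7 and 436 CPM in them, 6 and 8 of 8 with a UMI, and B and plasma markers to 32.7 and 249 CPM, 6 and 7 of 8 with a UMI. The part of these in the ratios was not tested.

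DCs, which present antigen to T cells, were few, and several of the genes were not detectable in them at this depth. Gpnmb and Lpl had 0 UMIs in both libraries, which allows up to 19.9 CPM in PBS and 7.95 CPM in cmExoaCD11b. Trem2 had 1 and 0 UMIs and Abca1 had 1 in each library. Apoe had 11 and 2 UMIs, a ratio of 0.0728 (0.00784 to 0.333), and Spp1 had 9 and 6, a ratio of 0.267 (0.0781 to 0.839). Free RNA alone, taken from empty droplets, would give 173% of the Apoe UMIs seen in PBS DCs and 235% of those in cmExoaCD11b DCs, and 132% and 63.4% of the Spp1 UMIs, so the levels of Apoe in both libraries and of Spp1 in PBS were read as background. Lgals3 was present at 973 CPM in PBS DCs and 824 CPM in cmExoaCD11b DCs, a ratio of 0.847 (0.694 to 1.04). Cd36 was 92.7 and 63.6 CPM, a ratio of 0.686 (0.341 to 1.43). Fabp5 ran opposite to its direction in macrophages, at 755 CPM in PBS and 138 CPM in cmExoaCD11b, a ratio of 0.183 (0.129 to 0.256). Of the 114 PBS UMIs, 69 came from 1 of the 17 cells, and the ratio was 0.348 without the richest cells. By count, 3 of 5 genes with a mean of at least 10 CPM were at least 2-fold lower and 0 higher, and Apoe and Spp1 were among the 3. Apoe passed that mean through PBS alone, with 5.30 CPM in cmExoaCD11b. Spp1 was 0.774 with the second markers and 1.24 under the stricter gate. In so few cells 13.7% of 7871 genes were at least 2-fold lower and 15.3% at least 2-fold higher.

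Neutrophils made up 70.8% of PBS cells and 64.1% of cmExoaCD11b cells, so low levels per cell still summed to many UMIs. Of the Lgals3 UMIs in kept cells, 60.6% in PBS and 69.2% in cmExoaCD11b lay in neutrophils. Neutrophils held 33386990 of all 50650189 UMIs of kept cells in PBS and 43765273 of 62502167 in cmExoaCD11b. These shares alone thus do not set Lgals3 apart from other genes. Lgals3 was 947 CPM in PBS and 640 CPM in cmExoaCD11b, a ratio of 0.676 (0.665 to 0.687). Spp1 was 434 and 87.9 CPM, a ratio of 0.203 (0.195 to 0.210). The deepest PBS neutrophil, with 92841 UMIs, held 19.0% of the PBS Spp1 UMIs, and the ratio was 0.234 without the richest cells and 0.407 as a mean over cells. Epithelial and stromal markers, of cells rich in Spp1, summed to 127 CPM in PBS neutrophils and 25.6 CPM in cmExoaCD11b neutrophils, and their part in the Spp1 ratio was not tested. Apoe was 206 and 54.9 CPM, a ratio of 0.267 (0.255 to 0.280), which became 0.528, short of 2-fold, with free RNA subtracted. Gpnmb was 19.4 and 4.62 CPM, a ratio of 0.237 (0.202 to 0.278). Abca1 was 67.7 and 37.6 CPM, a ratio of 0.555 (0.521 to 0.592). Fabp5 was 83.6 and 90.8 CPM, a ratio of 1.09 (1.03 to 1.14), close to the 1.07 of the median gene. Trem2, Lpl and Cd36 had a mean under 10 CPM. Trem2 had a ratio of 0.393 (0.330 to 0.466), Lpl of 0.474 (0.364 to 0.615; 0.808 as a mean over cells) and Cd36 of 0.849 (0.576 to 1.25). Of the 6 genes above that mean, 3 were at least 2-fold lower, or 2 with free RNA subtracted, and 0 at least 2-fold higher, beside 2.46% and 1.6% of 6703 genes. Gpnmb, 1 of the 3, passed that mean through its PBS level alone.

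Empty droplets of the PBS library were richer in these transcripts than those of the cmExoaCD11b library. Apoe was 3699 CPM in PBS empty droplets and 511 CPM in those of cmExoaCD11b, and Spp1 was 2297 and 413 CPM. The share of free RNA, estimated from neutrophil markers in lymphocytes, was 3.41% of UMIs in PBS and 2.44% in cmExoaCD11b. The gate left out lymphocytes with as many neutrophil markers as their own, so both shares may be too low. At these shares free RNA comes to 0.849% of macrophage Apoe in PBS and 0.174% in cmExoaCD11b. In neutrophils it comes to 61.4% and 22.7% of Apoe, and to 18.1% and 11.5% of Spp1. Lymphocytes had lower ratios of both genes too. Apoe was 0.387 in T and NK cells and 0.375 in B and plasma cells, and Spp1 was 0.158 and 0.0704. In PBS T and NK cells Spp1 was 610 CPM, with 62.4% of its UMIs in 1 cell. Gpnmb was 0.889 (0.535 to 1.50) and 1.45 (0.827 to 2.65) in these classes, from few UMIs. T and NK cells had 26 Gpnmb UMIs in PBS and 44 in cmExoaCD11b, of which 69.2% and 77.3% lay in 1 cell. B and plasma cells had 18 and 47. What the lymphocyte ratios share with the myeloid ones was not tested. The plot of thinned shares sets each class beside lymphocytes, which should lack most of these genes. Apoe was found in 16.1% of thinned PBS neutrophils (median 3372.5 UMIs before thinning), 14.5% of T and NK cells (median 4704.5) and 29.7% of B and plasma cells (median 3648). The PBS neutrophil share was thus not told apart from background, although free RNA comes to only 61.4% of the level. However, PBS B and plasma cells held 239 CPM of Apoe, above the 126 CPM that free RNA would give. In cmExoaCD11b the shares were 4.62%, 2.88% and 11.8%, with neutrophils again between the lymphocyte classes. Trem2, Lpl and Cd36 were likewise at or below a lymphocyte share in PBS neutrophils. Gpnmb was found in 1.56% of PBS neutrophils (1.22 to 1.96%). Its shares were 0.491% of T and NK cells (0.0596 to 1.76%) and 0% of B and plasma cells (0 to 1.25%), with intervals that overlap the neutrophil one. Spp1 was found in 15.7% of PBS neutrophils against 9.34% and 7.17% of the lymphocyte classes, and Lgals3 in 47.0% against 18.4% and 8.87%. Fabp5 was found in 11.2% of PBS neutrophils (10.3 to 12.1%) against 3.93% and 1.71%, and in 11.8% of cmExoaCD11b neutrophils.

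**Figure D3:**
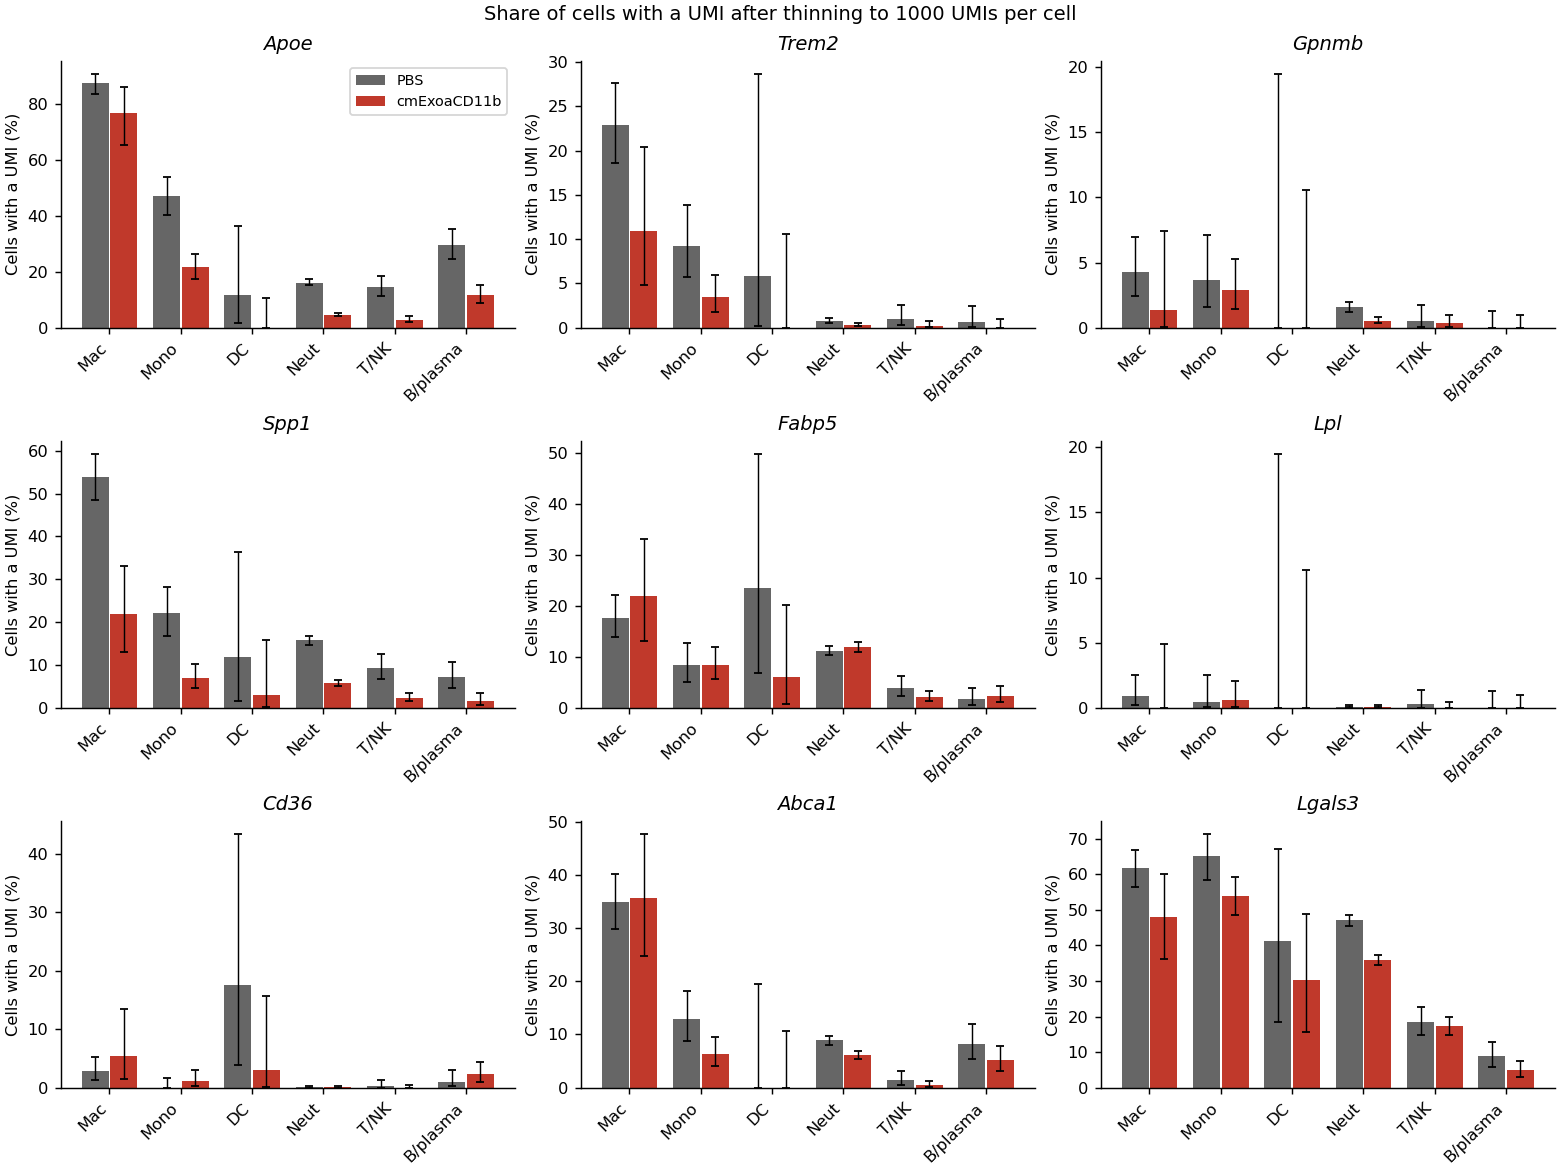
Share of cells (%) with at least 1 UMI of each gene after every cell was thinned to 1000 UMIs, in macrophages (Mac), monocytes (Mono), DCs, neutrophils (Neut), T and NK cells, and B and plasma cells of each library. Bars start at 0 and error bars are exact Clopper-Pearson 95% intervals; Spp1 was found in 54.0% of PBS and 21.9% of cmExoaCD11b macrophages, and Abca1 in 34.9% and 35.6%.

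The genes were also counted together in each thinned cell. In PBS, 213 of 350 macrophages, 60.9% (55.5 to 66.0%), had UMIs of at least 3 of the 9 genes, against 25 of 73 in cmExoaCD11b, 34.2% (23.5 to 46.3%). The median was 3 genes in PBS macrophages and 2 in cmExoaCD11b macrophages, and the highest number was 6 in both. Among monocytes, 22.1% of PBS cells and 6.38% of cmExoaCD11b cells had at least 3 genes. In neutrophils it was 6.10% and 1.81%, and in T and NK cells, taken as a background, 1.23% and 0.442%. Across single macrophages, the pair Apoe and Trem2 had the highest Pearson r in PBS, 0.469 over 360 cells, and had 0.431 over the 77 cmExoaCD11b cells. Fabp5 with Lgals3 had 0.299 and 0.463, and Spp1 with Lgals3 had 0.290 and 0.389. Apoe with Lgals3 was slightly negative in PBS, at -0.117. These correlations are descriptions, since cells share a library and differ in depth.

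**Figure D4:**
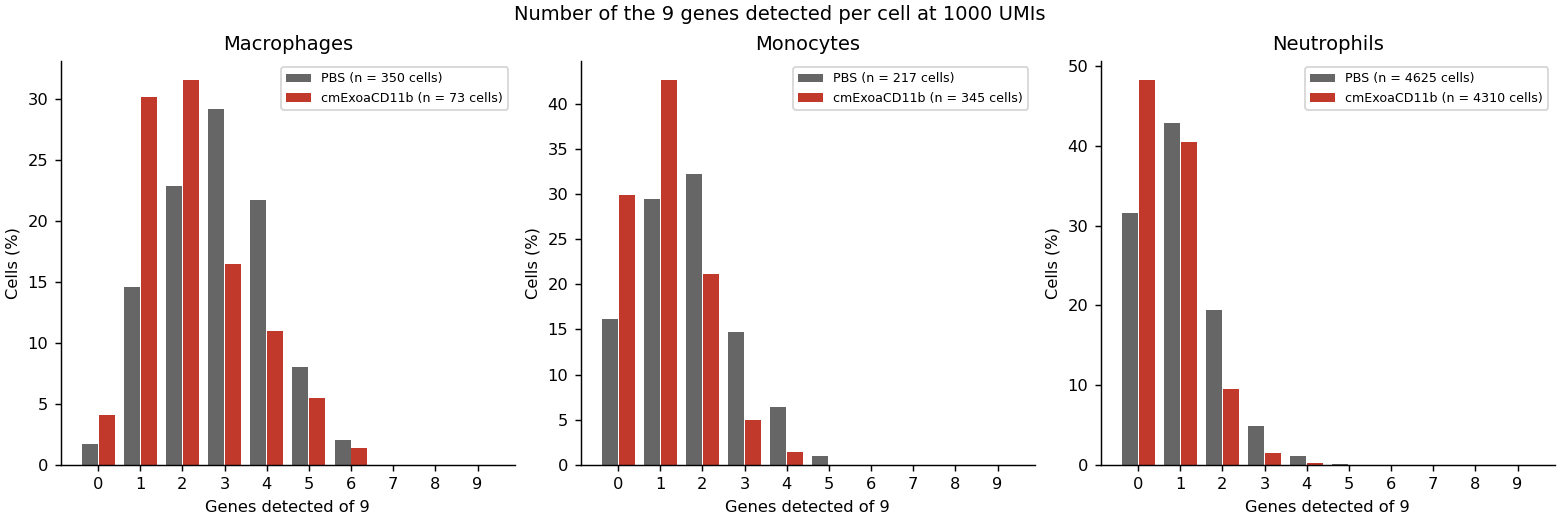
Percent of cells (y axis) by the number of the 9 genes with at least 1 UMI (x axis) in macrophages, monocytes and neutrophils thinned to 1000 UMIs per cell, with PBS and cmExoaCD11b bars side by side. In macrophages the median is 3 genes in PBS and 2 in cmExoaCD11b.

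Arg1, the arginase often used to mark suppressive macrophages, split the 9 genes. An Arg1 UMI was found in 173 of 350 thinned PBS macrophages, 49.4% (44.1 to 54.8%), and in 29 of 73 thinned cmExoaCD11b macrophages, 39.7% (28.5 to 51.9%). Spp1 was 5040 CPM in PBS macrophages with Arg1 and 859 CPM in those without, a ratio of 5.87 (4.94 to 7.02). In cmExoaCD11b it was 1862 and 159 CPM, a ratio of 11.7 (5.31 to 30.5), from 54 and 7 UMIs. Lgals3 was likewise higher with Arg1, with a ratio of 2.03 (1.70 to 2.41) in PBS and 2.41 (1.63 to 3.60) in cmExoaCD11b. Apoe was not. Its level was 12439 CPM with Arg1 and 15554 CPM without in PBS, a ratio of 0.800 (0.756 to 0.846), and 1.01 (0.864 to 1.19) in cmExoaCD11b. The ratios of Trem2, Abca1 and Fabp5 with to without Arg1 had intervals that included 1 in both libraries.

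Within each of these subsets, the library difference kept its direction for Spp1, Apoe and Fabp5. Spp1 had a cmExoaCD11b to PBS ratio of 0.369 (0.275 to 0.487) in macrophages with Arg1 and 0.185 (0.0732 to 0.391) in those without. Apoe had 0.740 (0.649 to 0.841) with Arg1 and 0.584 (0.525 to 0.649) without, both short of 2-fold. Trem2 had 0.481 (0.151 to 1.18) and 0.437 (0.136 to 1.10), here below Apoe, but from 5 cmExoaCD11b UMIs in each subset. Fabp5 had 2.67 (1.62 to 4.32) and 2.31 (1.32 to 3.96). Thinning gives each cell the same weight, which the summed levels above do not.

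**Figure D5:**
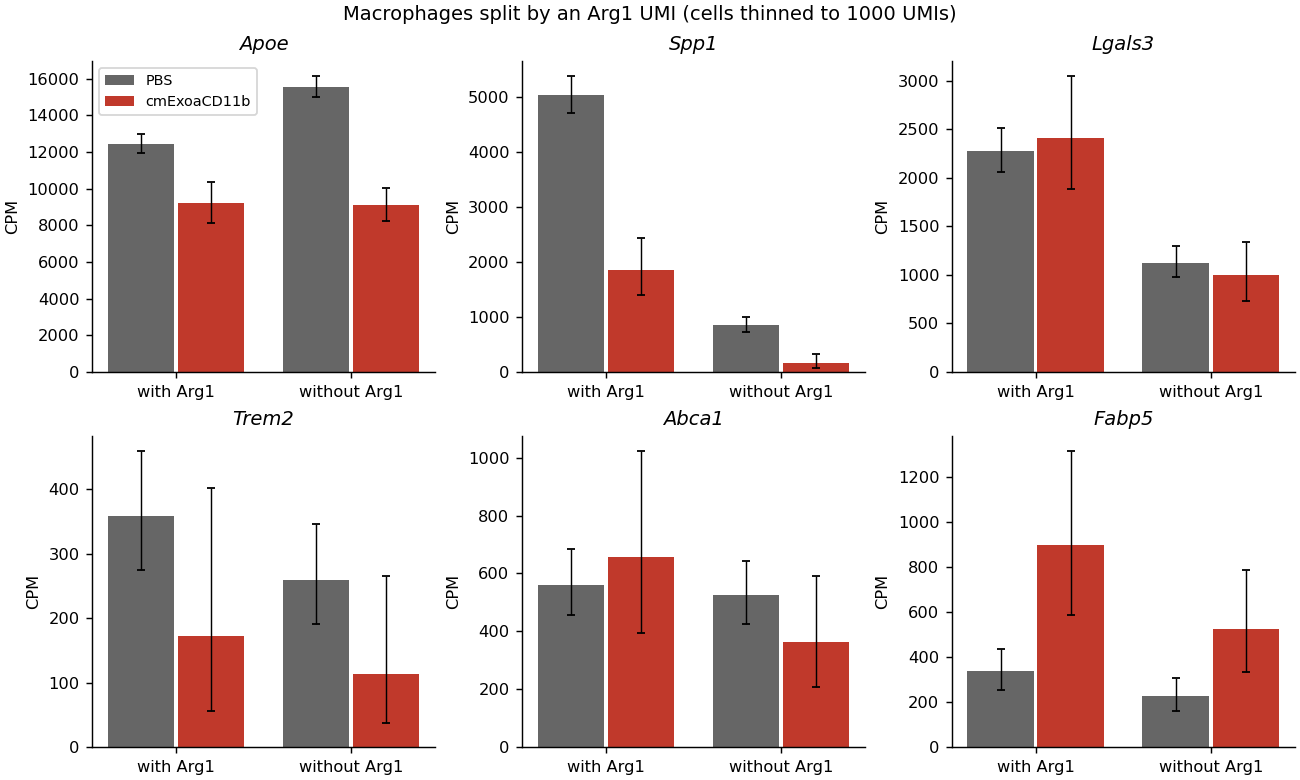
Level (CPM) of Apoe, Spp1, Lgals3, Trem2, Abca1 and Fabp5 in macrophages thinned to 1000 UMIs, split by whether an Arg1 UMI remained, in each library, with exact Poisson 95% intervals. Spp1 stands at 5040 CPM with Arg1 and 859 CPM without in PBS, and at 1862 and 159 CPM in cmExoaCD11b.

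Other genes of lipid handling were mostly within 2-fold in macrophages, as were most genes. Of 53 listed genes that passed a mean of 10 CPM, 1 was at least 2-fold lower and 2 at least 2-fold higher. Of all 7972 genes in macrophages, 3.2% were at least 2-fold lower and 4.78% at least 2-fold higher, with a median ratio of 1.04. Of 9 genes of lipid uptake and binding, 7 passed the mean of 10 CPM, with a median ratio of 0.825, 1 lower and 1 higher. The lower was Marco, a scavenger receptor, with 165 UMIs in PBS and 0 in cmExoaCD11b, at least 8.74-fold lower against a floor of 3 counts. Marco thus passed the mean through PBS alone. The higher was Fabp4, the fatty acid carrier related to Fabp5, at 10.3 and 40.8 CPM, a ratio of 3.95 (2.46 to 6.27). The scavenger receptor Olr1 (0.691) and the lipoprotein receptor Lrp1 (0.961) were the other genes this list's rule named. Of 9 genes of lipid droplets and triglycerides, 8 passed, with 0 lower, 1 higher and a median of 1.08. Dgat1, which makes triglyceride, was 43.3 and 86.7 CPM, a ratio just at the 2-fold line (1.50 to 2.64), while Hilpda, a droplet protein induced by hypoxia, was 647 and 405 CPM, a ratio of 0.626 (0.556 to 0.703). Dgat2 had 1.43 and Plin3 had 0.703.

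For cholesterol efflux and LXR targets, 9 of 10 genes passed and 0 were past 2-fold in either direction, with a median ratio of 1.05. Abcg1, the partner exporter of Abca1, was 40.7 and 70.1 CPM, a ratio of 1.72 (1.25 to 2.33), and Apoc2, an apolipoprotein, was 212 and 140 CPM, a ratio of 0.661 (0.538 to 0.806). Nr1h3, which encodes LXR alpha, had 1.28 (0.580 to 2.57) and the lipid regulator Srebf1 0.667 (0.295 to 1.33). Of 10 genes of cholesterol synthesis, 5 passed, 0 were past 2-fold and the median was 0.781, with the isomerase Idi1 lowest at 0.510 (0.181 to 1.16), Fdps next at 0.663, and Insig1, a sterol sensor, at 0.887. All 16 lysosomal genes passed, and 0 were past 2-fold, with a median of 0.878. Among them Cd63, a tetraspanin of late endosomes, had 0.579 (0.516 to 0.647), Cd68 0.639 (0.551 to 0.738) and Lamp2 1.13 (1.00 to 1.28). Of 9 genes of signalling and regulation, 8 passed and 0 were past 2-fold, with a median of 0.857. Tyrobp, the adaptor of TREM2, was 1588 and 1240 CPM, a ratio of 0.781 (0.730 to 0.835), and its kinase Syk had 0.970 (0.816 to 1.15). Cd9 had 0.632 (0.556 to 0.716) and Itgax 1.27 (0.890 to 1.76). In monocytes, 3 of the 50 genes of these lists that passed were past 2-fold, 2 lower and 1 higher, beside the 1.62% and 5.61% of all genes. Hilpda was lower at 0.462 and Scd2, a fatty acid desaturase, at 0.445, and Itgax was higher at 2.01. Itgax, at 9.68 CPM in PBS and 19.5 CPM in cmExoaCD11b, passed the mean through cmExoaCD11b alone.

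The genes whose levels across the 4 myeloid classes of both libraries were most like those of each of the 9 were ranked by Pearson r of log2(CPM + 1) over these 8 sums, among 8115 genes. For Apoe they were Stab1 (0.992), Trem2 (0.990) and Fcgr2b (0.988), so Trem2 stood second of all genes. For Trem2 they were Fcgr2b (0.997), Scamp3 (0.993) and Apoe (0.990). Spp1 was most like Ecm1 (0.989), Pgk1 (0.988) and Atp6v0b (0.976), and Gpnmb most like Atp6v1b2 (0.984), Nt5dc2 (0.982) and Map7d1 (0.982). Lpl had Atp6ap1 (0.995), Pld3 (0.990) and Clcn7 (0.985), and Abca1 had Ftl1 (0.983), Tmem86a (0.982) and Cxcl1 (0.982). Lgals3 had Dpep2 (0.983), Dusp3 (0.982) and Itga5 (0.981). Fabp5 had Ly9 (0.987), Pik3ca (0.981) and Rnf121 (0.970), and Cd36 had Nubpl (0.993), Ccnd1 (0.983) and Camkmt (0.975). Fabp5 and Cd36, both highest in DCs in PBS, had 0.799 with each other, but Fabp5 had only 0.389 with Apoe and Cd36 0.0264. With 8 points that share 2 libraries, a high r is common among so many genes.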

How the data were processed

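The authors deposited raw UMI counts per gene and droplet barcode, 67143628 in PBS and 81288480 in cmExoaCD11b, unfiltered. The file headers name Cell Ranger 7.1.0, the paper's methods another version, and the genome build is not given in the sources used here. The 9 genes and all lists were chosen with earlier results of these data known.

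A barcode counted as a cell above the 99th percentile of the 3000 largest divided by 10, or, from 500 UMIs, if its profile departed from that of empty droplets (at most 100 UMIs; multinomial, 10000 simulations, false discovery rate 0.01). The filters were a minimum of 200 genes and a mitochondrial share of no more than 20%. The top Scrublet scores, 421 and 453 cells, were removed as doublets, because the automatic threshold marked 0 cells. Named were the 9 genes, the 2 highest and 2 lowest ratios of each pathway list, and the 3 genes most like each of the 9; some that this rule selects are not reported here. The cmExoaCD11b to PBS ratios and the gates were tested on simulated data. Python 3.11.15, scipy 1.17.1 and scanpy 1.11.5 were used. No paired analysis was possible because each group is 1 pool of mice.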

Additional observations from a re-analysis of the deposited data

Results flagged for a closer look

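Fabp5 differed in direction between cell classes. Its cmExoaCD11b to PBS ratio was 1.95 in macrophages, 1.58 in monocytes, 1.09 in neutrophils and 0.183 in DCs. The difference was not tested, with 1 library per group. Single cells held 31.2% of the cmExoaCD11b Fabp5 UMIs in macrophages and 60.5% of the PBS Fabp5 UMIs in DCs. Without the richest cell of each library the ratios stayed on the same sides of 1, at 1.53 in macrophages and 0.348 in DCs.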

How the results depend on the processing

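Of 90 recomputed macrophage ratios of the 9 genes, 68 moved by less than the counting interval of the reported value and 22 by more, and 0 that were past 2-fold changed direction. Apoe was 0.449 above the ranked-UMI limit alone, 0.441 with no doublets removed, 0.433 with a second set of gate markers, 0.463 with the median ratio of all genes set to 1 and 0.616 as a mean over cells, which ends its 2-fold call. Trem2 was 0.558 with the second markers. Spp1 was 0.231 with no doublets removed, 0.327 under a stricter gate, 0.253 with the second markers and 0.317 as a mean over cells. Fabp5 was 1.58 with no doublets removed and 2.63 under the stricter gate, and it also passed 2-fold above the ranked-UMI limit alone (2.04) and as a mean over cells (2.05). Lpl was 0.454 with no doublets removed, 0.0928 under the stricter gate and 0.286 as a mean over cells, each past the 2-fold line. Abca1 was 0.816 with no doublets removed, and Lgals3 was 0.841 there, 1.28 under the stricter gate and 0.933 as a mean over cells. Gpnmb ranged from 0.292 to 0.635, across the 2-fold line. Leaving out the richest cell of each library, an alternative chosen after seeing the data, gave 0.448 for Apoe, 0.190 for Spp1, 1.53 for Fabp5 and 0.0530 for Lpl. Macrophages numbered 235 and 38 above the ranked-UMI limit alone and 44 in cmExoaCD11b under the stricter gate. Of 228 ratios in the other 3 classes, 160 moved by less than the counting interval, 67 by more, and 1 past 2-fold reversed, Spp1 in DCs at 1.24 under the stricter gate. The 2-fold calls that ended were Apoe in neutrophils with free RNA subtracted (0.528), Abca1 in monocytes under the stricter gate (0.571) and without the richest cells (0.520), Cd36 in monocytes as a mean over cells (1.21), Lpl in neutrophils under the stricter gate (0.631), as a mean over cells (0.808) and without the richest cells (0.513), and Spp1 in DCs with the second markers (0.774). Lpl in monocytes, at 1.41, gave 0.446 under the stricter gate, 6.54 with the second markers and 2.48 without the richest cells. Subtracting free RNA gave no ratio for Apoe and Spp1 in DCs. The cause of these moves was not tested. DCs, and Lpl, Cd36 and Gpnmb everywhere, are limited by few UMIs.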
